A study of Danio rerio with 6 samples.

Results

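The germ plasm of zebrafish is the cytoplasm, rich in RNA and protein granules, that oocytes store and embryos pass on to their future germ cells. The transcripts of ddx4 and of 6 other genes with a role in it, buc, dazl, dnd1, nanos3, celf1 and ca15b, were followed here in ovaries mutant for the ovary-biased ddx4 transcript. These 7 genes were found by their zebrafish symbols among the 32519 genes of the deposited table, each matched exactly 1 gene, and all 7 passed the filter on low counts that left 19353 genes for testing.

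Ovaries of wild-type (WT) and ddx4-L mutant females at 6 months post-fertilization (mpf) were compared by RNA-seq, with 3 libraries from 3 fish of each genotype. The mutant, labelled ddx4-E4Δ, carries a short CRISPR-Cas9 deletion in exon 4 of ddx4, which belongs to the long, ovary-biased transcript ddx4-L. The short transcript ddx4-S, which skips that exon, is still made in these fish, so the line is no complete loss of ddx4. The mutant fish were homozygous and of a single line, another allele was not analysed here, and whole ovaries were used, in which fewer cells of a type and less RNA per cell cannot be told apart.

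In the early oocyte, germ plasm RNAs and proteins gather with mitochondria in the Balbiani body, which later disperses at the vegetal cortex. In the zebrafish embryo the same material is partitioned into a few cells that become primordial germ cells. Buc is the protein that organizes the Balbiani body. Ddx4 (Vasa) is an ATP-dependent RNA helicase of the germ granules, and Dazl, Dnd1, Nanos3 and Celf1 are RNA-binding proteins that act on the translation or the stability of germ line RNAs. The gene ca15b encodes a carbonic anhydrase whose maternal RNA is a germ plasm component.

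The genotype of the fish was read by PCR across exon 4, where the deletion removes a restriction site, and the primers of that assay are shown because they frame the altered part of ddx4.
ddx4-E4-F: ccgagctgtgacctttgtgta
ddx4-E4-R: atcggaaaggcaggctgttag
Both primers are written 5′ to 3′. The deposited counts cover the gene as a whole and do not separate ddx4-L from ddx4-S.

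The table sums to between 76520483 and 86263179 per library, and its values were used as estimated counts, with about 4 units of the table for each sequenced fragment. All 7 genes had at least 1263 counts in each library. Levels are given as CPM, the counts of a gene relative to the TMM-scaled total of its library. Differences are given as log2FC, the log2 fold change of mutant over WT, with a standard error (SE). A gene was called where its adjusted p (edgeR's quasi-likelihood test, Benjamini-Hochberg over all genes tested) was under 0.05. By that rule 4.57% of the tested genes were called, 379 (1.96%) higher and 505 (2.61%) lower in the mutant. Total-count scaling gave 533 higher and 411 lower, and scaling to growing oocyte genes gave 333 higher and 228 lower. The ovarian label was checked against marker genes of oocytes, which were all detected, among them gdf9 with 5025 to 5813 counts in WT and 3049 to 3271 counts in mutant libraries.

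Of the 7 genes, only ca15b was called, and it was lower in the mutant. The level of nanos3 was higher in each mutant library than in any WT library without passing the test, and ddx4, buc, dazl, dnd1 and celf1 were not called either. The count of 1 gene in 7 stands against 4.57% of all genes tested, 2.61% for calls in the lower direction alone. At an unadjusted p under 0.05 (edgeR) there were 3 of the 7 genes and 19.9% of all genes tested. The 7 genes had a median log2FC of -0.16 and all genes tested 0.014. Of the 7, 3 were above 0 and 4 below, and of all genes tested 9976 above and 9377 below. The median of the 7 was unsteady when 1 library was left out, at -0.029 without mutant replicate 1, -0.051 without WT replicate 3 and -0.24 without WT replicate 1. With total-count scaling it was -0.087 and with growing oocyte gene scaling -0.059, but these scalings also moved the all-gene median. Less the all-gene median of the same fit, it was -0.183 and -0.199 with these scalings, against -0.175 with TMM scaling. In 4 of the 7 genes (nanos3 higher, and ca15b, celf1 and buc lower in the mutant) the genotypes had no overlap in CPM, which was so for 28.4% of all genes tested.

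**Figure D1:**
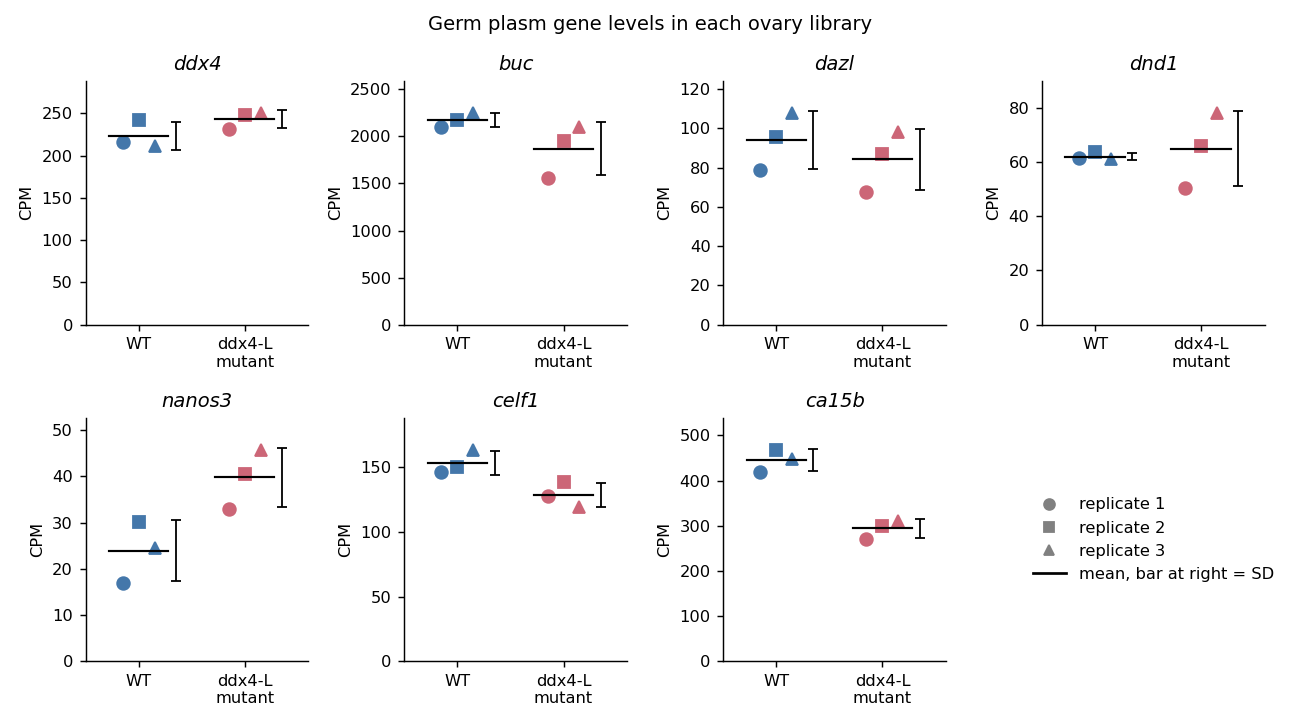
CPM of each germ plasm gene (linear axis from 0) in the 3 WT (blue) and 3 ddx4-L mutant (red) libraries, with replicate number by marker shape, the mean as a line and the SD as a bar. The mutant libraries of ca15b lie between 271 and 310.4 CPM, below the WT range of 419.8 to 469 CPM, while those of ddx4, dazl and dnd1 overlap with WT.

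The carbonic anhydrase gene ca15b (ENSDARG00000040510) had 419.8, 469 and 447 CPM in WT replicates 1, 2 and 3. In mutant replicates 1, 2 and 3 it had 271, 300.0 and 310.4 CPM. The genotypes were well apart, and the gap between the lowest WT and the highest mutant library was wider than the range within either genotype. WT averaged 445 ± 24.4 CPM and the mutant 294 ± 20.2 CPM (SD, n = 3). The log2FC was -0.60 (SE 0.092, 95% interval -0.82 to -0.38, adjusted p = 0.016 in edgeR), a level 1.51-fold lower in the mutant. With each library left out in turn the log2FC stayed between -0.64 and -0.55, but the call was lost without WT replicate 2, WT replicate 3 or mutant replicate 2 (adjusted p = 0.057, 0.055 and 0.054). Across the other alternatives the adjusted p of ca15b ran from 4.0e-07 with DESeq2 to 0.053. Its relatives ca15a (ENSDARG00000015654) and ca15c (ENSDARG00000002259) had at most 13 and 4 counts in any library, where 12 counts (3 fragments) was the floor set for detection. Neither relative passed the filter on low counts.

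The nanos3 gene (ENSDARG00000068255) encodes a zinc finger RNA-binding protein that keeps primordial germ cells alive and, in zebrafish, is needed to maintain oocyte production in the adult ovary. It had 17.0, 30.2 and 24.6 CPM in WT replicates 1, 2 and 3 and 33.0, 40.5 and 45.8 CPM in mutant replicates 1, 2 and 3. Each mutant library lay above each WT library, although the highest WT and the lowest mutant library were close. The WT mean was 23.9 ± 6.63 CPM (SD, n = 3) and the mutant mean 39.8 ± 6.44 CPM (SD, n = 3). The log2FC of 0.73 was the largest of the 7 genes in size, with an SE of 0.23 and a 95% interval from 0.20 to 1.26. With an adjusted p of 0.13 in edgeR nanos3 was not called. DESeq2 called it with an adjusted p of 0.023, and called 2 of the 7 genes and 12.0% of all genes tested. Leaving out 1 library moved its log2FC between 0.54, without WT replicate 1, and 0.94, without WT replicate 2, and called it in none of the 6 fits. WT replicate 1 was the library with the lowest nanos3 level of all 6.

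The other nanos genes were at lower counts. Nanos2, which in zebrafish marks germ line stem cells, had 0 counts in all 6 libraries (ENSDARG00000116802), which allows up to 0.139 to 0.157 CPM. For nanos1 (ENSDARG00000109337) the mean was 2.09 ± 0.82 CPM for WT and 0.98 ± 0.33 CPM for the mutant (SD, n = 3), without overlap and with a log2FC of -1.09 (SE 0.46, adjusted p = 0.24 in edgeR). Neither nanos1 nor nanos3 was called, and their log2FC values had opposite signs.

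The levels of ddx4 itself (ENSDARG00000014373) were 215, 241 and 211 CPM in WT replicates 1, 2 and 3 and 231, 248 and 250.5 CPM in mutant replicates 1, 2 and 3. WT replicate 2 lay within the mutant range and the other WT libraries below it. In total, ddx4 varied 1.19-fold between the lowest and the highest of the 6 libraries, the narrowest range of the 7 genes, against 2.70-fold for nanos3. The 95% interval of the log2FC ran from -0.076 to 0.33, that is from 0.95-fold to 1.26-fold of the WT level, with an adjusted p of 0.47 in edgeR. Total-count scaling, under which its groups did not overlap, moved its log2FC to 0.21, and scaling to growing oocyte genes moved it to 0.25, neither with a call.

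To find the genes that followed ddx4 most closely, log2 CPM less the gene's own mean was compared over the 6 libraries among the 5819 other genes whose log2 CPM averaged 5 or more. The smallest root mean square differences lay between 0.030 and 0.038 on the log2 scale. They were those of PPP1CB (ENSDARG00000044153), SMYD2 (ENSDARG00000055151), ABRAXAS1 (ENSDARG00000043339), NDUFS1 (ENSDARG00000028546) and CTDNEP1 (ENSDARG00000016519), with symbols in capitals as found for these zebrafish genes. These are the smallest of 5819 values, so genes chosen beforehand would mostly lie farther off. Since ddx4 itself varied little, the difference also grows with the other gene's own spread. None of the germ plasm genes came near the 5 values. The closest of them, dnd1, differed from ddx4 by 0.16 and took place 2709 in this order, while buc (0.21), celf1 (0.23), dazl (0.24) and ca15b (0.37) were farther away, and nanos3 had too low a mean to enter.

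Bucky ball, encoded by buc (ENSDARG00000096095), organizes the Balbiani body, and its RNA was at 2098, 2169 and 2249 CPM in WT replicates 1, 2 and 3. In mutant replicates 1, 2 and 3 it was at 1561, 1951 and 2097 CPM. The highest mutant library reached the lowest WT library to within about 1 CPM, so that the lack of overlap is nominal, and with upper-quartile, total-count or growing oocyte gene scaling, or with all genes of at least 1 count, the genotypes overlapped. WT averaged 2172 ± 75.6 CPM and the mutant 1869.6 ± 277 CPM (SD, n = 3), a log2FC of -0.22 (95% interval -0.53 to 0.098, adjusted p = 0.43 in edgeR). Without mutant replicate 1 the log2FC was -0.11. The related buc2l (ENSDARG00000096628) had a log2FC of -0.020 (95% interval -0.26 to 0.22, adjusted p = 0.94 in edgeR).

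The translational regulators dazl and dnd1 overlapped between the genotypes. Dazl (ENSDARG00000036214), which promotes the translation of germ line RNAs, had 78.9, 95.6 and 108 CPM in WT replicates 1, 2 and 3 and 67.5, 86.8 and 98.4 CPM in mutant replicates 1, 2 and 3. Its log2FC was -0.16 (95% interval -0.55 to 0.23, adjusted p = 0.65 in edgeR), and replicates 1 were the lowest and replicates 3 the highest of both genotypes. Dnd1 (ENSDARG00000022813), which shields germ line RNAs from microRNAs in the zebrafish embryo, lay at 61.3, 63.6 and 61.2 CPM in WT replicates 1, 2 and 3. In mutant replicates 1, 2 and 3 it lay at 50.5, 65.9 and 78.1 CPM, on both sides of the narrow WT range. The log2FC of dnd1 was 0.064 (95% interval -0.30 to 0.43, adjusted p = 0.86 in edgeR), with a coefficient of variation of 2.26% in WT and 21.3% in the mutant. Its sign turned without mutant replicate 3, to -0.092.

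Celf1 (ENSDARG00000005315), also known as Bruno-like, is an RNA-binding protein of splicing and translation control. Its gene had 146, 149.6 and 163 CPM in WT replicates 1, 2 and 3 and 127, 138 and 119 CPM in mutant replicates 1, 2 and 3. All mutant libraries were below all WT libraries, with means of 153 ± 9.27 CPM for WT and 128 ± 9.55 CPM for the mutant (SD, n = 3). The log2FC of -0.25 (SE 0.088, 95% interval -0.46 to -0.046) was not called, with an adjusted p of 0.17 in edgeR and 0.12 from DESeq2, and it was -0.12 with growing oocyte gene scaling, under which the genotypes overlapped. In the RefSeq assembly GRCz12tu the span of celf1 overlaps with nudt19 (ENSDARG00000077537), which had 361 to 633 counts per library against 9462 to 13773 counts of celf1. In the same assembly dazl overlaps with pals2b, and ddx4 and dnd1 each with a long noncoding RNA gene. How the counting assigned reads of overlapping genes is not given in the sources used here.

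**Figure D2:**
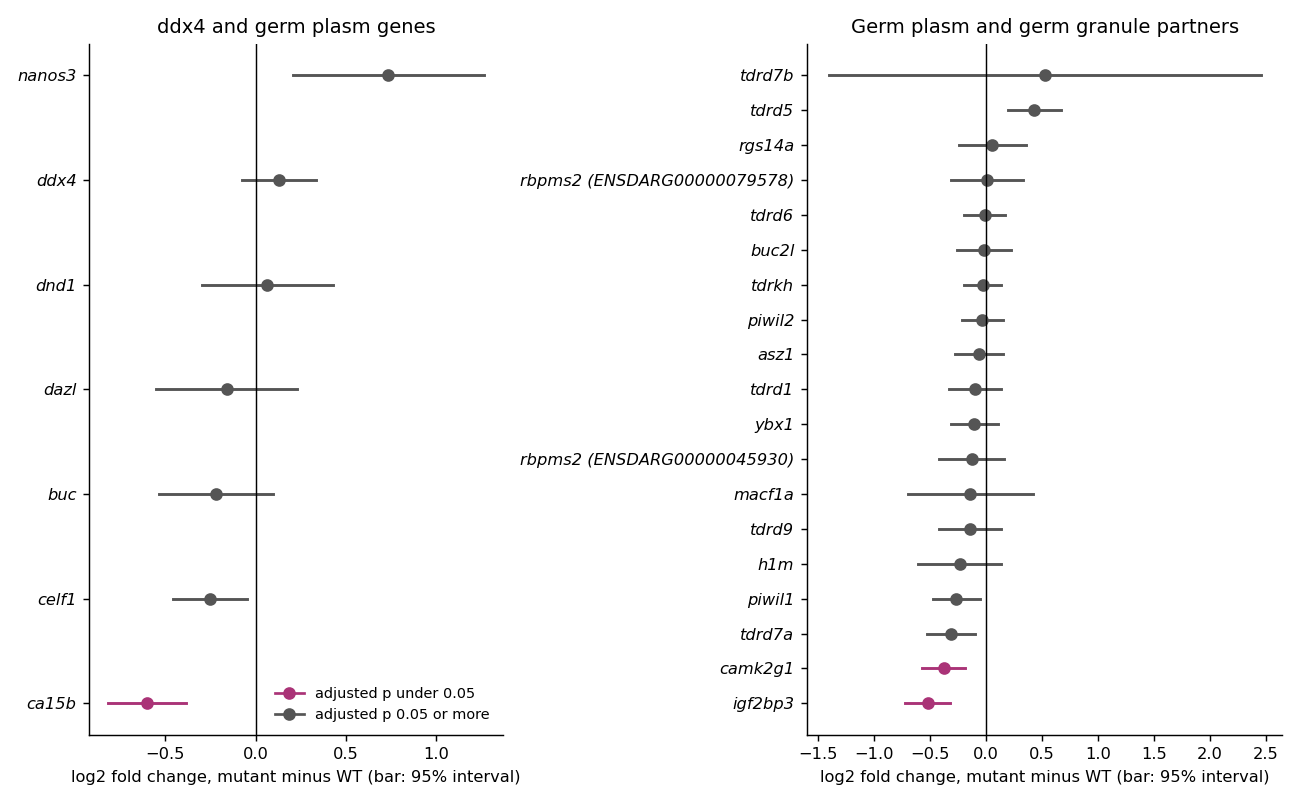
Log2FC, mutant minus WT, with its 95% interval from edgeR for the 7 germ plasm genes (left) and for the 19 partner genes that were tested (right), with called genes in purple. The interval of ca15b runs from -0.82 to -0.38, and most partner genes lie close to 0.

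Apart from the genotype, the mutant libraries ranked alike in most of the germ plasm genes, and the WT libraries less so. Among the mutant libraries, replicate 1 had the lowest level of 6 of the 7 genes, all but celf1, and replicate 3 had the highest level of the same 6. TMM scaling lowered the CPM of mutant replicate 1 most, with a factor of 1.08 against 1.00 and 1.01 in mutant replicates 2 and 3. In counts before scaling, ddx4 was lowest in mutant replicate 2, with 19284, 18951 and 19856 counts in mutant replicates 1, 2 and 3. The counts of buc, dazl, dnd1, nanos3 and ca15b kept the order of their CPM. These 3 libraries summed to 77225773, 76520483 and 78770562. The ranks under other scalings were not compared. Among the WT libraries, replicate 1 had the lowest level of 5 of the 7 genes, and replicate 3 the lowest of 2 and the highest of 3. The sums of the growing oocyte and partner lists had the same order of the mutant libraries. In mutant replicates 1, 2 and 3 the growing oocyte list summed to 12734, 14540 and 16508 CPM (WT 14652 to 15642). The partner list summed to 4043, 4692 and 4829 CPM (WT 4940 to 4962). Each sum depends much on 1 abundant gene. In mutant replicates 1, 2 and 3 zp2.1 of the oocyte list had 6468, 7467 and 8551 CPM. The partner gene h1m had 1165, 1518 and 1748 CPM. Not all genes of these lists had this order, and the partner gene tdrd5 was highest in mutant replicate 1, at 168 CPM. How many of all genes tested share this order was not counted. The CPM of buc in mutant replicate 1 was -0.48 on the log2 scale relative to the WT mean, against -0.16 and -0.05 in mutant replicates 2 and 3. Mutant replicate 1 also had the highest summed level of the stroma list, 178.7 CPM over 7 genes, against 24.2 and 88.6 CPM in mutant replicates 2 and 3 and 26.8 to 87.1 CPM in WT. Most of the 178.7 CPM were the collagen genes col1a1a, col1a1b and col1a2, at 48.4, 46.6 and 46.5 CPM. The stroma gene acta2 was instead highest in WT replicate 3, at 31.2 CPM against 17.9 CPM in mutant replicate 1. These genes were singled out after their values were seen. In mutant replicate 1 the immune list summed to 104 CPM, against 37.3 and 81.3 CPM in mutant replicates 2 and 3 and 24.4 to 73.3 CPM in WT. The part of these cells in the germ plasm gene levels was not tested. Without mutant replicate 1 the log2FC was -0.55 for ca15b (adjusted p = 0.042 in edgeR), 0.85 for nanos3, 0.21 for dnd1 and -0.029 for dazl.

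**Figure D3:**
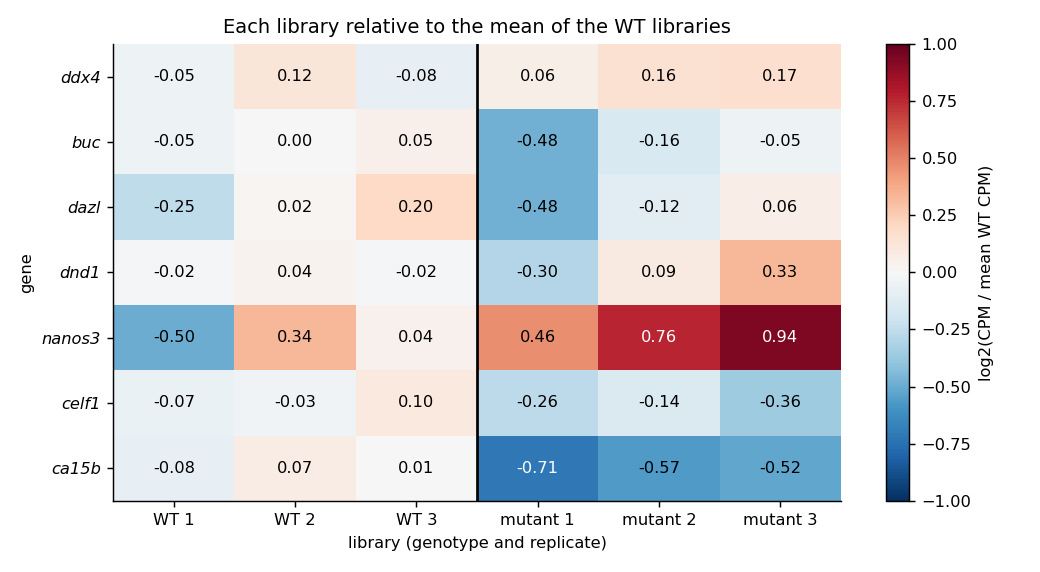
Log2 of the CPM of each gene (rows) in each library (columns) over the mean of the WT libraries, with WT left and mutant right of the line. All mutant values are below 0 for ca15b, celf1 and buc and above 0 for nanos3 and ddx4, and in mutant replicate 1 the values of buc and dazl are both -0.48.

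A ratio of the counts of 2 genes within a library does not depend on how libraries are scaled. Such ratios were formed for the 21 pairs of the 7 genes, as a description without a test. In 14 of the 21 pairs the ratios of the genotypes did not overlap, against 28.5% of all pairs of tested genes without a 0. All 6 pairs with ca15b and all 6 pairs with nanos3 were among the 14, so these 2 genes made up most of that count. The rest of the 14 were ddx4 to buc, ddx4 to celf1 and buc to dnd1. Among pairs without ca15b and nanos3, all those of dazl overlapped, as did ddx4 to dnd1, buc to celf1 and dnd1 to celf1. The largest shift was that of nanos3 to ca15b, which was 0.040, 0.064 and 0.055 in WT replicates 1, 2 and 3 and 0.122, 0.135 and 0.148 in mutant replicates 1, 2 and 3, a 2.53-fold higher mean in the mutant. The ratio of ddx4 to ca15b averaged 0.50 ± 0.025 for WT and 0.83 ± 0.023 for the mutant (SD, n = 3), without overlap. The ratio of buc to dazl averaged 23.4 ± 2.94 for WT and 22.3 ± 0.92 for the mutant (SD, n = 3) with overlap. Since the same 7 genes enter all pairs, these ratios are not independent of each other or of the CPM values.

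**Figure D4:**
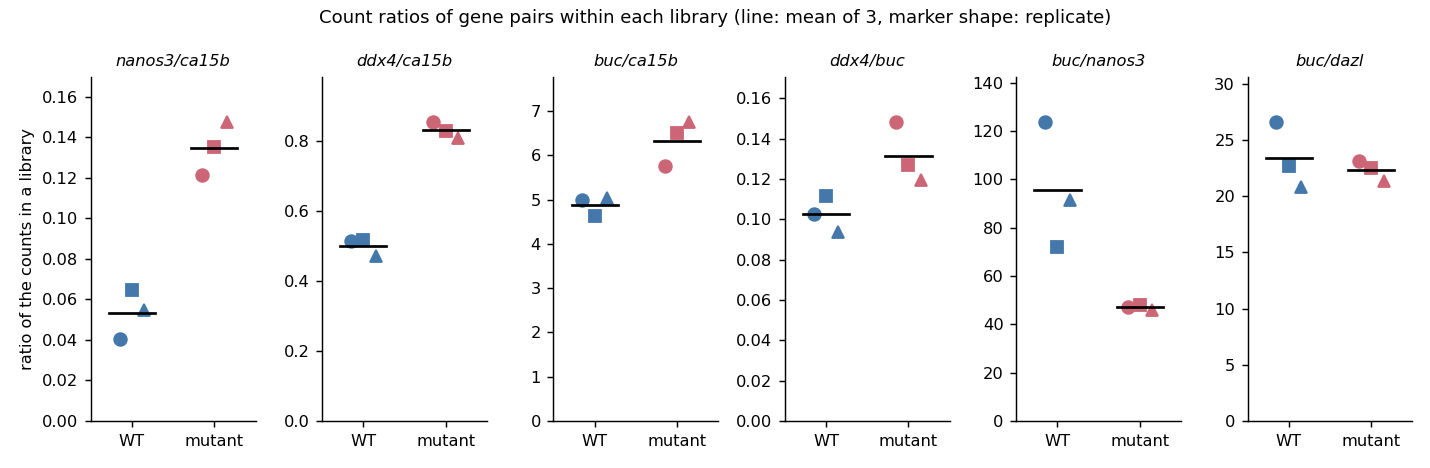
Ratio of the counts of 2 genes in each library (linear axes from 0) for 6 pairs, in WT (blue) and mutant (red), with the mean as a line. The ratio of nanos3 to ca15b is 0.040 to 0.064 in WT and 0.122 to 0.148 in the mutant, while that of buc to dazl overlaps between the genotypes.

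The germ plasm and germ granule partners are genes whose proteins share granules with Ddx4 and Buc or whose RNAs share the germ plasm. Of 22 names, 19 were matched and tested, 0 were called higher and 2 lower in the mutant, and 17 were not called, against 4.57% called among all genes tested. Their median log2FC was -0.10, with 4 genes above 0 and 15 below, against 9976 above and 9377 below among all genes tested. The gene igf2bp3 (ENSDARG00000010266), for an RNA-binding protein of RNA stability, fell from 119 ± 6.57 CPM to 82.5 ± 5.58 CPM (SD, n = 3), a log2FC of -0.52 (adjusted p = 0.020 in edgeR). The gene camk2g1 (ENSDARG00000071395), for a calcium-dependent kinase, fell from 89.8 ± 4.61 CPM to 68.9 ± 2.64 CPM (SD, n = 3), a log2FC of -0.38 (adjusted p = 0.046 in edgeR). Leaving out any of the 6 libraries ended the call of camk2g1, and igf2bp3 was called in 2 of these 6 fits, without mutant replicate 1 and without mutant replicate 3. With growing oocyte gene scaling the adjusted p (edgeR) was 0.22 for igf2bp3 and 0.34 for camk2g1, and with the replicate block 0.062 and 0.12. The call of camk2g1 was also lost with total-count scaling (adjusted p = 0.074 in edgeR) and with all genes of at least 1 count (0.061).

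Among the Tudor proteins, which bind Piwi proteins and build germ granules, tdrd6 (ENSDARG00000070052), a partner of Buc in zebrafish, had a log2FC of -0.013 (95% interval -0.20 to 0.17, adjusted p = 0.95 in edgeR). With DESeq2 tdrd5 was called as higher and tdrd7a as lower in the mutant, while edgeR called neither. The level of tdrd5 (ENSDARG00000071450) was 110.3 ± 6.72 CPM for WT and 149 ± 17.1 CPM for the mutant (SD, n = 3), and the adjusted p was 0.062 in edgeR and 0.0059 from DESeq2. For tdrd7a (ENSDARG00000032808) the level was 208 ± 18.7 CPM for WT and 167 ± 7.62 CPM for the mutant (SD, n = 3), with an adjusted p of 0.11 in edgeR and 0.037 from DESeq2. The tdrd7b gene (ENSDARG00000077523), whose log2FC of 0.52 was the highest of the list, was uneven within WT, with 0.55, 7.52 and 8.72 CPM, and was at 4.79 to 11.1 CPM in the mutant (adjusted p = 0.78 in edgeR).

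The Piwi gene piwil1 (ENSDARG00000041699), which acts with piRNAs, had a log2FC of -0.27 without overlap between the genotypes (95% interval -0.48 to -0.056, adjusted p = 0.16 in edgeR). Under the symbol rbpms2 the table holds a pair of genes, and which is rbpms2a or rbpms2b was not settled. Rbpms2 proteins bind RNA and Buc in the zebrafish Balbiani body, and the log2FC values of the pair were -0.13 (ENSDARG00000045930) and 0.0061 (ENSDARG00000079578), with adjusted p of 0.63 and 0.99 in edgeR. Of the 17 names in the list of relatives of the 7 genes, 16 were matched and 11 tested. Of these 11, edgeR called 0 and DESeq2 0, against 4.57% and 12.0% of all genes tested. At an unadjusted p under 0.05 (edgeR) there was 1 of the 11, against 19.9% of all genes tested. The log2FC values of the 11 ran from -1.48 for celf6 (ENSDARG00000101933), which had at most 37 counts in a library, to 0.47 for rbm47 (ENSDARG00000061985).

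Among 14 genes of growing oocytes, edgeR called 0 higher and 2 lower, against 1.96% higher and 2.61% lower among all genes tested. Their median log2FC was -0.23, with 6 above 0 and 8 below, so they did not all move in 1 direction. Those above 0 reached at most 0.089, except npm2a at 0.37. Without overlap in CPM were 0 higher and 5 lower, against 14.3% higher and 14.0% lower among all genes tested. DESeq2 called 0 higher and 4 lower, with btg4 and cpeb1b besides the 2 called by edgeR. Among all genes tested DESeq2 called 12.0%, with 1093 genes higher and 1230 lower. The genes called by edgeR were gdf9 (ENSDARG00000003229), an oocyte growth factor, and pou5f3 (ENSDARG00000044774), a maternal transcription factor. Their levels fell from 70.7 ± 5.19 to 39.97 ± 1.25 CPM and from 50.1 ± 12.2 to 17.3 ± 2.06 CPM (SD, n = 3), with log2FC values of -0.82 and -1.53 (adjusted p = 0.0064 and 0.0085 in edgeR), and each was called in all 6 fits that left out 1 library. Of the list of oogonia and early meiotic prophase, 11 genes were tested and only foxl2l (ENSDARG00000008010), which marks oogonia that enter the female path in zebrafish, was called. It was higher in the mutant, at 0.24, 0.46 and 0.18 CPM in the WT and 2.83, 1.79 and 1.27 CPM in the mutant libraries. The log2FC was 2.74 (SE 0.55, adjusted p = 0.039 in edgeR). The WT libraries held only 18, 35 and 15 counts of foxl2l, against the floor of 12 counts, so its log2FC rests on few WT counts. The call of foxl2l held in 1 of the 6 fits that left out a library, the one without WT replicate 2, and was lost with growing oocyte gene scaling (adjusted p = 0.056 in edgeR) and with the replicate block (0.088). The summed level of that list was 16.0 to 20.3 CPM in WT and 29.9 to 38.1 CPM in the mutant, but its genes did not move together, with 6 of the 11 above 0 and 5 below. The meiotic break enzyme gene spo11 (ENSDARG00000013837), at 3.34, 3.38 and 7.77 CPM in the WT and 13.8, 12.1 and 14.2 CPM in the mutant libraries, had the largest share of the difference in the sum. In the other direction, the chromosome axis gene sycp3 (ENSDARG00000013438) had 0.90, 0.56 and 0.78 CPM in WT and at most 0.10 CPM in the mutant libraries. The mutant libraries held at most 8 counts of sycp3, below the floor of 12 counts, and the WT libraries 42 to 67. Neither spo11 nor sycp3 was called by edgeR (adjusted p = 0.069 and 0.12), and both were by DESeq2 (0.0010 and 0.019). DESeq2 called 3 genes of the list higher and 1 lower, against 12.0% of all genes tested. One of them was syce2 (ENSDARG00000103187), at 3.66 ± 0.87 CPM for WT and 7.55 ± 1.13 CPM for the mutant (SD, n = 3). Its adjusted p was 0.077 in edgeR and 0.0048 from DESeq2. The meiotic cohesin gene smc1b (ENSDARG00000014402) was at 1.23 ± 0.19 CPM for WT and 0.51 ± 0.15 CPM for the mutant (SD, n = 3), without overlap. Its adjusted p was 0.17 in edgeR and 0.12 from DESeq2. The genes spo11, sycp3, syce2 and smc1b were singled out after their values were seen. The list does not hold sycp1 or stag3, which the paper reports as lower in the mutant, so it is no full account of meiotic prophase genes. The part of such cells in the nanos3 level was not tested.

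No gene of the lists for the other cells of the ovary was called, against 4.57% of all genes tested. These lists had 11 granulosa and theca, 7 stroma, 7 immune and 3 blood genes tested. With so few genes, the lack of calls does not show that these cells were alike in the genotypes. The granulosa and theca list summed to 67.4 to 98.0 CPM in WT and 102 to 109.8 CPM in the mutant over 11 genes, of which 4 had a log2FC above 0 and 7 below, with a median of -0.046. Most of that sum was the steroid enzyme gene cyp17a1 (ENSDARG00000033566), singled out after its values were seen, at 59.97 ± 23.4 CPM for WT and 84.6 ± 5.41 CPM for the mutant (SD, n = 3, adjusted p = 0.38 in edgeR). The 3 tested blood genes summed to 14.5 CPM in WT replicate 1 and to 1.96 to 2.81 CPM in the other libraries. Of the 14.5 CPM, 13.98 CPM were hbaa1 (ENSDARG00000097011), which had 1041 counts there and 88 to 189 counts elsewhere. Of the 7 names in the blood list only these 3 were tested, and the rest of the 3 were at few counts. The gene hbaa2 (ENSDARG00000069735) had 22 counts in WT replicate 1 and 0 to 16 elsewhere. For alas2 (ENSDARG00000038643) there were 18 counts in WT replicate 1 and 10 to 62 elsewhere. Both were named after their values were seen. A link of hbaa1 with the nanos3 level, lowest in the same library, was not tested. In the stroma list 6 of the 7 tested genes had a log2FC above 0, with a median of 1.25, and in the immune list 6 of 7, with a median of 0.66. Among all genes tested 9976 were above 0 and 9377 below. Among the defining markers, col1a1a (ENSDARG00000012405) had 4030 counts in mutant replicate 1 and 321 in mutant replicate 2, and ptprc (ENSDARG00000071437) had 506 and 82 counts. Both foxl2 genes of granulosa cells, a pair of which it was not settled which is foxl2a, had log2FC values of 0.064 (ENSDARG00000042180) and -0.042 (ENSDARG00000068417), with adjusted p of 0.97 for each in edgeR.

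**Figure D5:**
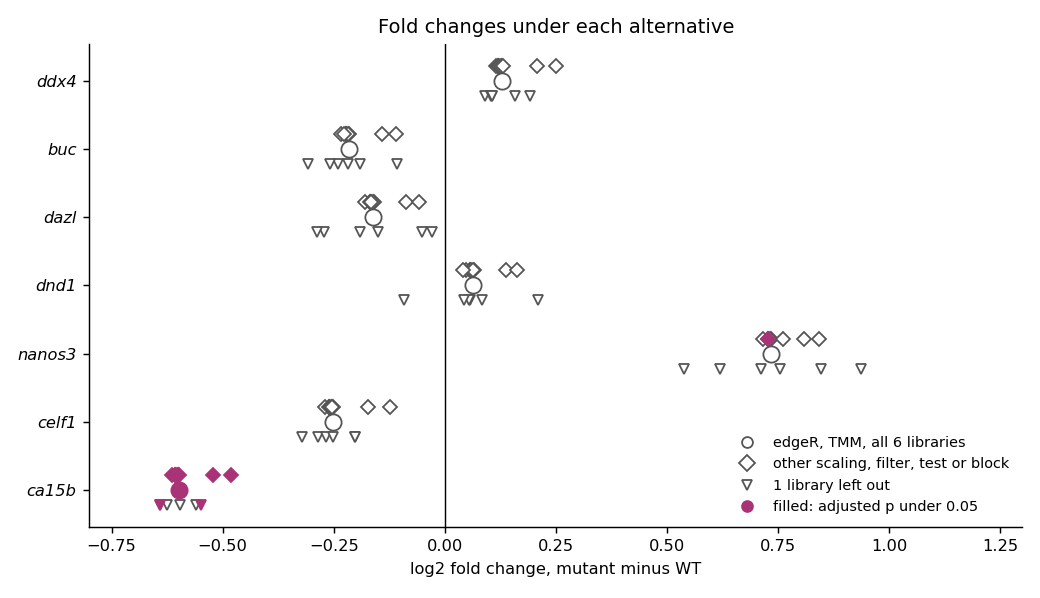
Log2FC of each germ plasm gene, mutant minus WT, under the edgeR fit of all 6 libraries (circle), the other scalings, filters, tests and block (diamonds) and with 1 library left out (triangles), filled where the adjusted p was under 0.05 (the open diamond of ca15b with the replicate block is covered by filled ones). The values of ca15b stay between -0.64 and -0.48 and those of nanos3 between 0.54 and 0.94, while dnd1 lies on both sides of 0.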

How the data were processed

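RNA of 3 WT and 3 ddx4-L mutant ovaries was sequenced. According to the methods, reads were trimmed (Cutadapt), aligned to the GRCz11 genome (STAR) and summed over genes (featureCounts), while the submitters' processing notes name HISAT2, StringTie, RSEM and DESeq2. The paper and the labels name different library kits. The annotation, strand setting and handling of multi-mapping reads are not given in the sources used here. The authors deposited whole numbers per gene, used here as estimated counts, because a library sums to more than its reads and, above 0, values of 4 are the commonest. Symbols were found for 29200 of 32519 genes, and names without a unique match were left out, except pairs whose names were both listed.

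Genes were kept by filterByExpr, scaled by TMM (factors 0.968 to 1.08) and tested in edgeR 4.0.16 (R 4.3.3) by the quasi-likelihood test without a block, with Benjamini-Hochberg adjustment over 19353 genes. Standard errors were the log2 fold change over the root of F. The script was tested on simulated data. Alternatives were RLE, upper-quartile, total-count and growing oocyte gene scaling, filters of at least 1 count in all or a mean of at least 40, values divided by 4, DESeq2 1.42.0, the replicate number as a block and each library left out. P-values measure the spread between the 3 fish of each genotype. The 7 genes and all lists were chosen with earlier results of these data known. By rule the named genes were the 7, list genes called by edgeR or, for partners and relatives, by DESeq2, and the extremes of the partner and relative lists. Preset markers, the 5 genes closest to ddx4 and a gene that overlaps celf1 were also named. All other genes were named after their values were seen. Gene spans of the RefSeq table, which is of another build, served only to find overlapping neighbours.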

Additional observations from a re-analysis of the deposited data

How the results depend on the processing

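Of 105 combinations of a gene and an alternative, 99 kept the direction and the side of the threshold. For ca15b, DESeq2 kept the call, and the call was lost with the replicate block (log2 fold change -0.60, adjusted p = 0.053) and without WT replicate 2, WT replicate 3 or mutant replicate 2, with a range of -0.64 to -0.55 over the 6 fits that left out 1 library. DESeq2 called nanos3 (0.73), and dnd1 turned to -0.092 without mutant replicate 3, with 0.21 at the other end of its range without mutant replicate 1. The number of germ plasm genes called was 2 with DESeq2, 0 with the replicate block and between 0 and 1 with 1 library left out. The number without overlap was 2 with growing oocyte gene scaling (28.5% of all genes tested) and between 4 and 6 with 1 library left out, where fewer libraries overlap less by construction (36.8% to 39.4% of all genes tested). That scaling, part of whose genes were themselves called lower, moved the all-gene median of log2FC from 0.014 to 0.14, and relative to this median ca15b was at -0.62, nanos3 at 0.70, ddx4 at 0.11 and celf1 at -0.26. The labels do not say whether the replicate numbers pair the samples. The deviations of same-numbered libraries correlated across genes at -0.074, 0.083 and -0.018. Those of different-numbered libraries correlated at -0.14 to 0.17, so these values show no pairing but cannot exclude it. The block changed no call among the 7 genes other than that of ca15b and lowered the number of genes called from 884 to 325. DESeq2 called 2323 genes, growing oocyte gene scaling 561, and leaving out 1 library between 420 and 583. The cause of these changes was not tested. With 3 libraries of each genotype, intervals of a 95% level were 0.41 wide on the log2 scale for ddx4 and 1.06 wide for nanos3.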

Other observations

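A relative of dnd1, a1cf (ENSDARG00000002968), an RNA-binding protein gene of RNA editing, had 203 counts in mutant replicate 2, 3 in mutant replicate 1 and 0 in the other 4 libraries, and it was not tested. The gene celf5b (ENSDARG00000090727), a relative of celf1, had 5 to 27 counts in the mutant and 0 to 7 counts in the WT libraries, and it did not pass the filter on low counts. The meiotic recombinase gene dmc1 (ENSDARG00000055883) had 4 to 10 counts in the WT and 0 to 4 counts in the mutant libraries, all below the floor of 12 counts. These genes were chosen after their values were seen.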
